A study of Rattus norvegicus with 6 samples.

Results

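Endothelial lipase and 5 related lipases were examined in rat atrial fibroblasts transfected with si-NC, a control siRNA, or with si-GPD1L, an siRNA against Gpd1l. The 6 genes were Lipg, Lpl, Lipa, Pnpla2, Lipe and Mgll, picked by symbol from the 40154 genes of the count table, Lipg because it had one of the largest decreases of a protein-coding gene in si-GPD1L libraries, and Lpl and the intracellular lipases for contrast. The comparison of these groups therefore entered the choice, and their differences are given as a description with no test. Of the 6 genes, 5 passed the filter on low counts and 1, Pnpla2, did not. The filter left 14852 genes in all.

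The cells came from Sprague-Dawley rats aged 1 to 3 days, and fibroblasts were separated from atrial myocytes by their faster adhesion to the dish. They were grown in medium with fetal bovine serum and collected 24 h after transfection, and poly(A) RNA was sequenced. Each group had 3 libraries, and all 6 carry the label "Atrial differentiation" as treatment. The labels do not say whether the final digit of a name numbers a replicate or another siRNA, nor whether the libraries came from separate animals or cultures, so p-values measure the spread between these libraries, which may be technical.

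Lipases release fatty acids from stored or circulating lipids, and they work at different places in and around the cell. Lipg (endothelial lipase) and Lpl (lipoprotein lipase) are secreted and act on lipoproteins at the surface of vessels, Lipg mainly on phospholipids of HDL and Lpl on triglyceride of chylomicrons and VLDL. Lipa (lysosomal acid lipase) splits cholesteryl esters and triglyceride inside lysosomes, and Pnpla2 (adipose triglyceride lipase), Lipe (hormone-sensitive lipase) and Mgll (monoglyceride lipase) take stored triglyceride of lipid droplets apart in successive steps.

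Library totals ran from 16892255 to 20149732 counts. Gpd1l itself had normalized counts of 262, 332 and 313 with si-NC against 220, 208 and 302 with si-GPD1L, where raw counts were brought to the average library size by TMM scaling. The means were 302 ± 36.3 and 244 ± 51.3 (SD, n = 3), a log2 fold change of -0.31 (SE 0.15). This difference did not pass edgeR's quasi-likelihood test (Benjamini-Hochberg adjusted p = 0.234) or an exact two-sided permutation test (p = 0.20, where 0.10 is the smallest p that 3 against 3 allow). The library labelled si-GPD1L replicate 3 lay inside the si-NC range, so the labelled knockdown was not detectable in it at the RNA level. Within si-NC, replicate 1 stood farther from replicates 2 and 3 (chi-square per degree of freedom 21.5 and 29.9) than these stood from each other (9.01). Results are therefore given without these 2 libraries as well. For Gpd1l the log2 fold change was -0.50 (SE 0.13, edgeR adjusted p = 0.0733) once si-GPD1L replicate 3 was left out and -0.41 (SE 0.13, edgeR adjusted p = 0.0604) once si-NC replicate 1 was left out.

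Of the secreted lipases, Lipg had raw counts of 81, 83 and 85 with si-NC against 28, 28 and 40 with si-GPD1L. The groups did not overlap. Within the si-GPD1L group, replicate 3 was the highest for Lipg, as it was for Gpd1l and for Lpl. This was picked after the values were seen, and a relation between Gpd1l and Lipg was not tested. Normalized counts were 80.1, 87.8 and 83.0 against 30.5, 25.4 and 39.9, with means of 83.6 ± 3.91 and 32.0 ± 7.35 (SD, n = 3). The log2 fold change was -1.39 (SE 0.21), so the si-GPD1L level was 38.2% of the si-NC level. These are small counts. The lower 95% Poisson limit of the lowest si-NC count was 64.3, and the upper limit of the highest si-GPD1L count was 54.5. These limits cover counting error only. Lipg was picked for its decrease in these same counts, so the limits do not test it. Without si-NC replicate 1 the log2 fold change was -1.42, and without si-GPD1L replicate 3 it was -1.58. Lipg lies on chromosome 18 of build rn6, minus strand, from 70903528 to 70924434, and has 1 transcript in the table.

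Lpl, the most abundant of the 5 tested transcripts, had raw counts of 4136, 4167 and 4984 with si-NC against 2128, 3029 and 3245 with si-GPD1L. Every si-GPD1L library was below every si-NC library, but the groups spread more than for Lipg. Normalized counts averaged 4454 ± 390 and 2771 ± 460 (SD, n = 3), a log2 fold change of -0.68 (SE 0.11), and the si-GPD1L level was 62.2% of the si-NC level. Without si-NC replicate 1 the log2 fold change was -0.74, and without si-GPD1L replicate 3 it was -0.81. Lpl lies on chromosome 16, minus strand, from 22537687 to 22561487.

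The share of Lipg relative to Lpl is given as a description only, since Lipg was picked for its decrease in this comparison. Lipg counts were 1.96%, 1.99% and 1.71% of Lpl counts with si-NC against 1.32%, 0.924% and 1.23% with si-GPD1L. The ratio within a library does not depend on library size, and its groups did not overlap (1.89% ± 0.157 against 1.16% ± 0.206, SD, n = 3). Lpl counts were 173%, 204.5% and 236% of Lipa counts with si-NC against 119%, 138% and 158% with si-GPD1L, again without overlap.

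**Figure D1:**
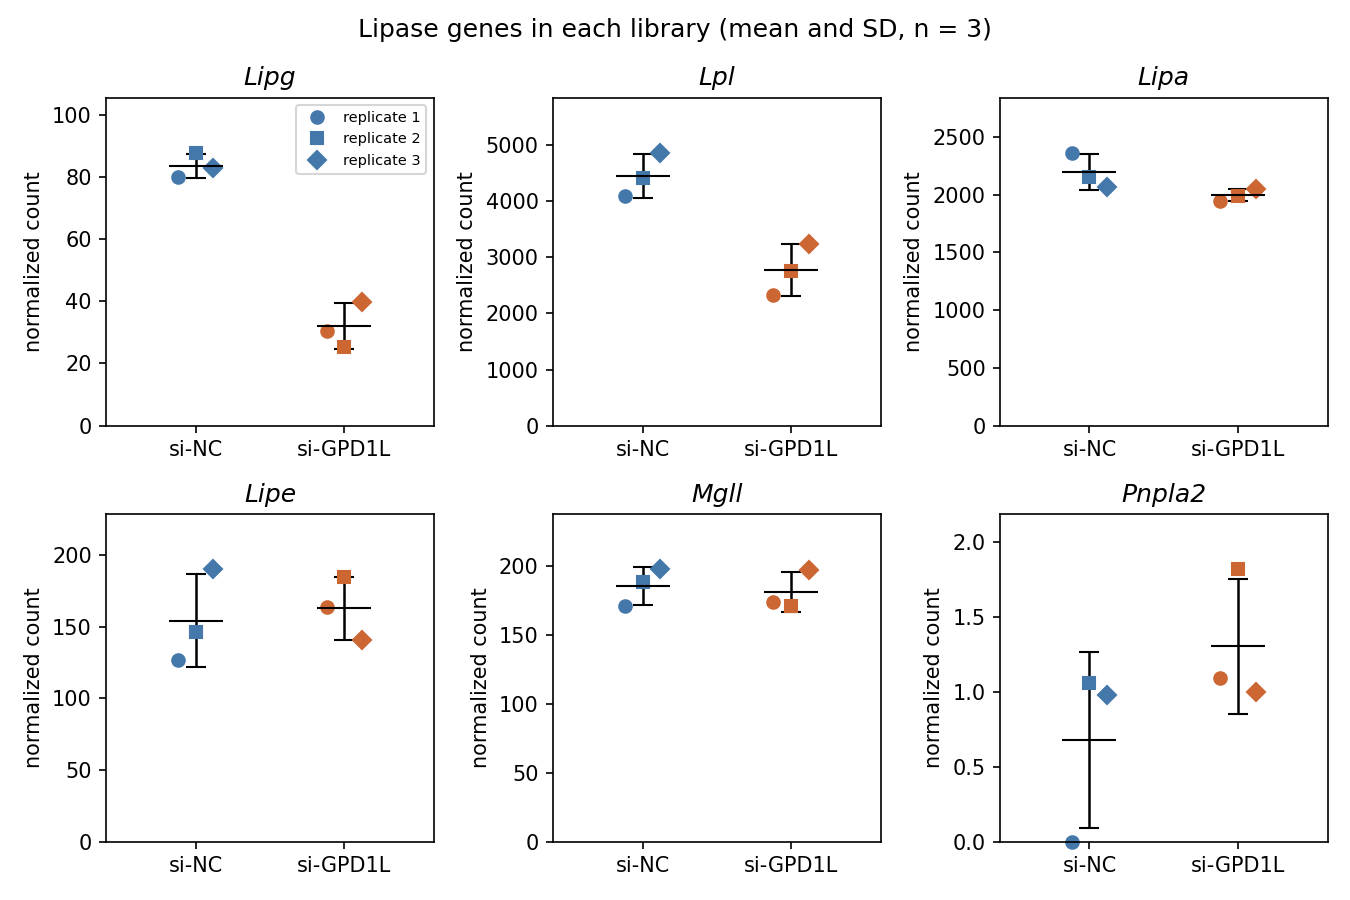
Normalized counts (vertical axes, each from 0) of the 6 lipase genes in the 3 si-NC and 3 si-GPD1L libraries, with the mean and SD of each group as a bar with whiskers and one symbol per replicate number. The groups lie apart for Lipg and Lpl, nearly meet for Lipa and overlap for Lipe and Mgll, and Pnpla2 has at most 2 raw counts in a library.

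Lipa, the lysosomal lipase, had raw counts of 2391, 2038 and 2114 with si-NC against 1783, 2188 and 2052 with si-GPD1L. After scaling the groups did not overlap but nearly met, the lowest si-NC library having 2063 normalized counts and the highest si-GPD1L library 2048. The means were 2194 ± 154 and 1994 ± 52.3 (SD, n = 3), and the log2 fold change was -0.14 (SE 0.072). Leaving out si-NC replicate 1 gave -0.082, and leaving out si-GPD1L replicate 3 gave -0.16.

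The Lipa gene (chromosome 1, minus strand, 252816536 to 252959348) spans 4 other genes of the annotation. Ifit1, Ifit2 and Ifit3, antiviral genes that interferon induces, lie on the plus strand, and Ifit1bl lies on the minus strand like Lipa. Raw counts of Ifit3 went from 6 to 19 in si-NC libraries to 1022 to 1712 in si-GPD1L libraries, those of Ifit1 from 6 to 10 to 564 to 759, and those of Ifit2 from 1352 to 1666 to 3119 to 4820. Ifit1bl had 71 to 86 counts against 82 to 90. Whether the counting used strand is not stated, and a part of these reads in the Lipa counts was not tested.

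Of the droplet lipases, Lipe had raw counts of 128, 138 and 195 with si-NC against 150, 203 and 141 with si-GPD1L. The groups overlapped, with normalized means of 154 ± 32.7 and 163 ± 21.9 (SD, n = 3) and a log2 fold change of 0.079 (SE 0.17). The sign of this value changed with the libraries left out, from -0.047 without si-NC replicate 1 to 0.26 without si-NC replicate 3. Without si-GPD1L replicate 3 it was 0.17. Lipe (chromosome 1, minus strand, 82248031 to 82266727) lies inside the span of an antisense lncRNA, LOC102549342, which had 51 to 58 raw counts with si-NC against 59 to 96 with si-GPD1L, and reads of the pair may not be separated.

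Mgll, which carries out the last step of triglyceride breakdown, had raw counts of 173, 178 and 203 with si-NC against 160, 188 and 198 with si-GPD1L. Its normalized means, 186 ± 13.7 and 181 ± 14.5 (SD, n = 3), differed by less than the spread within either group, with a log2 fold change of -0.038 (SE 0.12). Leaving out si-NC replicate 1 gave -0.096, and leaving out si-GPD1L replicate 3 gave -0.11. Mgll lies on chromosome 4, plus strand, from 120671436 to 120773458. The log2 fold changes of Lipe and Mgll thus lay within 1 SE of 0, which does not show that their levels were equal.

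Pnpla2, the lipase of the first step, had raw counts of 0, 1 and 1 with si-NC against 1, 2 and 1 with si-GPD1L. All are under the floor of 3 counts set for this table, so no fold change is given. This low count cannot be read as a low level of Pnpla2 RNA, because the gene lies in a stretch of chromosome 1 (rn6, 214434638 to 214439720, plus strand) that the annotation lists 2 times. A second entry, LOC100911615, named as patatin-like, lies 437 kb away at 213997721 to 214002811 with a length of 2239 bases against 2231 for Pnpla2. It had 8, 11 and 18 raw counts with si-NC against 6, 15 and 10 with si-GPD1L, and added to Pnpla2 it gave 7 to 19 counts per library with a log2 fold change of -0.18.

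The same pattern held for the neighbours of Pnpla2. In all, 11 adjacent genes from Pddc1 to Chid1 have a second entry in the same order, and no gene among them exceeded 65 raw counts, no second entry 82 and no pair 87 in any library. One of them is Rplp2, a ribosomal protein gene, with 1 to 7 counts, while its partners of the ribosomal stalk, Rplp0 and Rplp1, had 38058 to 44253 and 4771 to 6726, and the median of the mean count over 85 ribosomal protein genes was 8270. Outside the stretch, the flanking genes Taldo1 and Ap2a2 had 1305 to 1629 and 3191 to 4078 counts. The gene identifiers of 10 of the 11 genes and of 0 of the 11 second entries are in the RefSeq table of the later assembly GRCr8. Whether reads that match both entries were dropped in the authors' counting was not tested, since a genome of build rn6 was not used here. The Pnpla2 level in these cells is therefore not given.

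**Figure D2:**
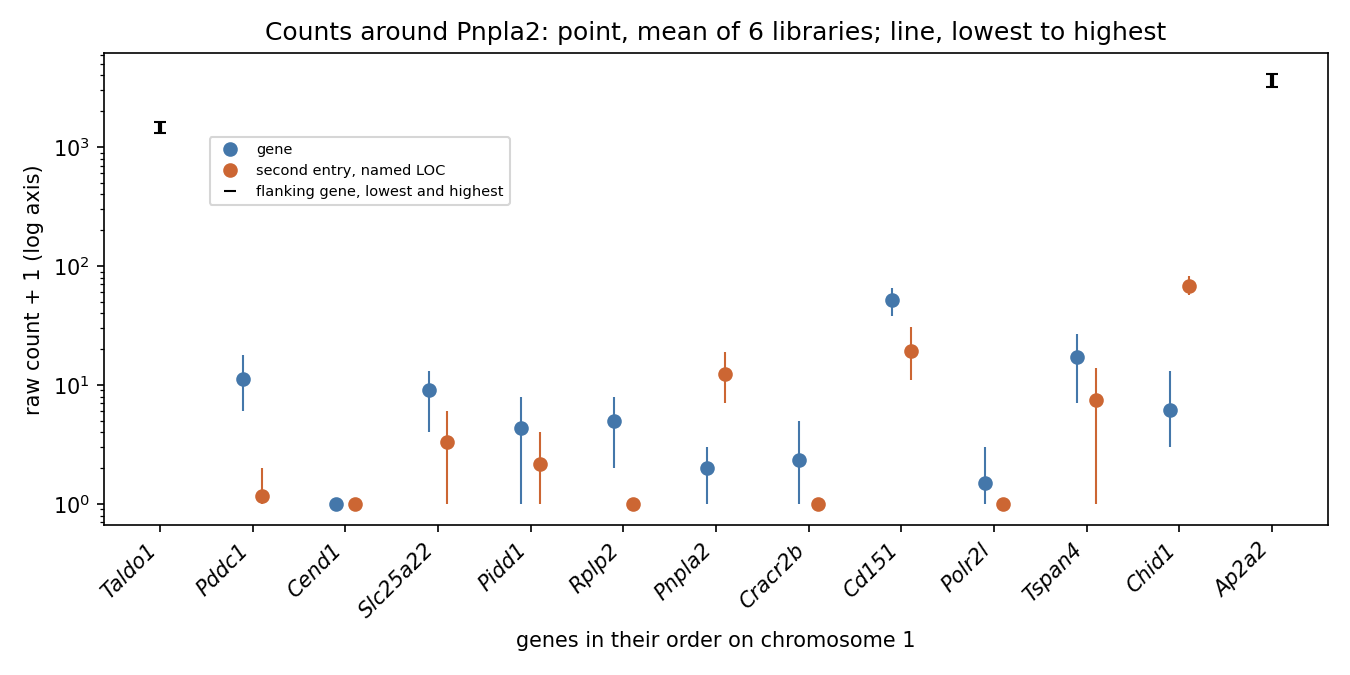
Raw counts plus 1 on a log axis (point, mean of 6 libraries, and line, lowest to highest library) for Pnpla2, its 10 neighbours in the stretch listed 2 times and their second entries, in their order on chromosome 1, with the ranges of the flanking genes at both ends. No entry of the stretch exceeds 82 counts, and the flanking genes Taldo1 and Ap2a2 lie more than 10 times higher.

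Levels of different genes were compared in TPM, the deposited counts per transcript length scaled to a common sum. In si-NC libraries Lpl had 189 ± 24.7 TPM, Lipa 76.9 ± 1.75, Lipg 6.74 ± 0.577, Mgll 5.60 ± 0.670 and Lipe 3.13 ± 0.788 (SD, n = 3). Lpl stood at percentile 94.9 and Lipa at percentile 86.4 of the tested genes in si-NC, and Lipg, Mgll and Lipe at percentiles 35.0, 32.0 and 23.9. Lipg and Mgll did not differ beyond their spread, with ranges of 6.10 to 7.21 and 4.86 to 6.17 TPM.

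In si-GPD1L libraries the TPM order was Lpl (124 ± 21.0), Lipa (74.1 ± 2.25), Mgll (5.76 ± 0.469), Lipe (3.48 ± 0.474) and Lipg (2.73 ± 0.627). Lipg thus moved from the third to the fifth place. Here Lipe and Lipg overlapped, with ranges of 3.01 to 3.96 and 2.18 to 3.41 TPM. The TPM of Mgll rests on a transcript length of 4257 bases, and a shorter transcript of 1207 bases is listed as well. The TPM of Lipe rests on a length of 6352 bases, while its listed transcripts have 2833 to 4429 bases. The places of Lipg, Mgll and Lipe in both orders therefore depend on these lengths.

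Among all 14852 genes tested, 945 passed an adjusted p under 0.05 (6.36%), with 599 genes higher (4.03%) and 346 genes lower (2.33%) after si-GPD1L. When the absolute log2 fold change also had to exceed 1, 240 genes passed (1.62%), 220 of them higher (1.48%) and 20 lower (0.135%). The groups did not overlap for 3 of the 5 tested lipase genes and for 29.0% of all genes tested. The comparison entered the choice of these genes, so nothing is read from these counts. The median log2 fold change was -0.14 over the 5 lipase genes and -0.0049 over all genes tested.

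When the 11883 genes averaging 50 normalized counts or more were ordered by log2 fold change, Lipg was at rank 4 from the lowest. Just below it lay Rmrp, the RNA of the mitochondrial RNA processing ribonuclease (-5.54, SE 1.53), and Hist1h2ao, a histone gene (-2.37, SE 1.10). Just above it lay Ptn, the secreted growth factor pleiotrophin (-1.32, SE 0.14), and Igfbp5, a binding protein of insulin-like growth factors (-1.10, SE 0.21). The SE of Rmrp and Hist1h2ao was far above that of Lipg, and their place in this order is less well set.

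The genes with a profile most like that of Lipg over the 6 libraries were Aif1l, Tmem150a, Ssbp3, Celf2 and the lncRNA LOC108349480, with Pearson's r of 0.990 to 0.994 on log2 normalized counts scaled per library. The points are 6 libraries in 2 groups, so r includes the difference between the groups, and no p is given. Aif1l, an actin-binding protein, went from 454 ± 10.9 to 334 ± 19.4 normalized counts (SD, n = 3). The log2 fold changes of these genes, from -0.56 for LOC108349480 to -0.21 for Ssbp3, were smaller in size than that of Lipg.

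Genes that act with the lipases were grouped in 8 lists of 134 genes, which the choice of the 6 lipases did not use. The lists were, however, chosen with earlier results of these data known. Their shares of calls are therefore a description and not an independent test. Of these, 109 were tested and 9 passed an adjusted p under 0.05 (8.26%, against 6.36% of all genes), 8 lower and 1 higher in si-GPD1L. Over all genes tested, 2.33% passed lower and 4.03% higher. None of the 9 had an absolute log2 fold change over 1. The median log2 fold change over the 109 genes was -0.013, against -0.0049 over all genes tested. All adjusted p-values in the lists come from edgeR's quasi-likelihood test with adjustment over the 14852 genes.

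The surface partners of Lpl and Lipg hold both enzymes at the vessel wall, fold them, inhibit them or clear them. Of 16 tested genes, 1 passed the test (over all genes 6.36% passed). Sort1, the sorting receptor sortilin that can bind Lpl, fell from 2595 ± 287 to 1886 ± 191 normalized counts (SD, n = 3), a log2 fold change of -0.46 (SE 0.095, adjusted p = 0.0134). Gpihbp1, the endothelial anchor of Lpl, never exceeded 2 raw counts and was below the filter. Lmf1, a chaperone that both enzymes need to fold, had 372 ± 57.8 and 443 ± 14.3 normalized counts, a log2 fold change of 0.25 (SE 0.11, adjusted p = 0.210). Angptl4, an inhibitor of Lpl, had 6.82 ± 4.20 and 13.8 ± 7.83 normalized counts, too few to place the change closer than a log2 fold change of 1.03 with an SE of 0.57 (adjusted p = 0.312).

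HDL, the particle on which Lipg acts, is loaded and unloaded by the next group. In it 1 of 7 tested genes passed (over all genes 6.36% passed). Abca1, the pump that loads HDL with cholesterol, rose from 2256 ± 252 to 2844 ± 117 normalized counts (SD, n = 3), a log2 fold change of 0.33 (SE 0.085, adjusted p = 0.0370). Scarb1, the HDL receptor that takes up cholesteryl ester, had 1074 ± 108 and 1028 ± 22.3 (log2 fold change -0.063, adjusted p = 0.702).

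In the list of lipolysis and lipid droplet genes, 2 of 16 tested genes passed, both lower (over all genes 6.36% passed and 2.33% were lower). Pde3b, the phosphodiesterase that lowers cyclic AMP upstream of Lipe, fell from 941 ± 28.8 to 571 ± 102 normalized counts (SD, n = 3), a log2 fold change of -0.72 (SE 0.11, adjusted p = 0.00200). Fabp3, the fatty acid binding protein of heart muscle, fell from 635 ± 106 to 382 ± 36.2, a log2 fold change of -0.73 (SE 0.12, adjusted p = 0.00314). The regulators that bind Pnpla2 directly did not pass the test. Abhd5, its coactivator, had 804 ± 46.9 and 742 ± 45.3 (adjusted p = 0.428), and G0s2, its inhibitor, 95.6 ± 18.6 and 95.4 ± 10.9 (adjusted p = 0.996). Plin2, a coat protein of lipid droplets, had 2471 ± 71.4 and 2281 ± 113 (adjusted p = 0.347).

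The lysosomal list holds the genes that export what Lipa releases, and 1 of its 12 tested genes passed (over all genes 6.36% passed). Npc2, the soluble carrier that hands cholesterol to Npc1, fell from 4832 ± 160 to 4061 ± 26.6 normalized counts (SD, n = 3), a log2 fold change of -0.25 (SE 0.067, adjusted p = 0.0455). Npc1 itself, the membrane exporter, had 840 ± 56.7 and 855 ± 43.0 (log2 fold change 0.025, adjusted p = 0.891).

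Sterol and fatty acid synthesis had the most calls of the lists, 4 of 14 tested genes, all lower (over all genes 6.36% passed and 2.33% were lower). Sqle, squalene epoxidase, fell from 2765 ± 87.2 to 2142 ± 104 normalized counts (SD, n = 3), a log2 fold change of -0.37 (SE 0.069, adjusted p = 0.00737). Idi1, the isomerase of the isoprenoid step, fell from 1952 ± 336 to 1340 ± 25.3 (log2 fold change -0.54, adjusted p = 0.00852). Insig1, the sterol sensor partner that holds back SREBP, fell from 6753 ± 369 to 5276 ± 183 (log2 fold change -0.36, adjusted p = 0.0125). Hmgcs1, HMG-CoA synthase, fell from 6904 ± 262 to 5668 ± 239 (log2 fold change -0.28, adjusted p = 0.0359).

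The other 3 lists had no call by the quasi-likelihood test. In triglyceride synthesis 0 of 17 tested genes passed, 4 had an unadjusted p under 0.05, and DESeq2 and edgeR's exact test each called 1, Lpin1, which was named after its values were seen. Among other lipases and phospholipases 0 of 13 passed, 3 had an unadjusted p under 0.05, and DESeq2 and the exact test called 0, and 9 of the 25 listed genes, Lipc (hepatic lipase) among them, had 0 counts in every library. Among transcription factors known to act on lipase genes, such as Pparg and Tfeb, 0 of 15 passed, 2 had an unadjusted p under 0.05, and DESeq2 and the exact test called 0.

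**Figure D3:**
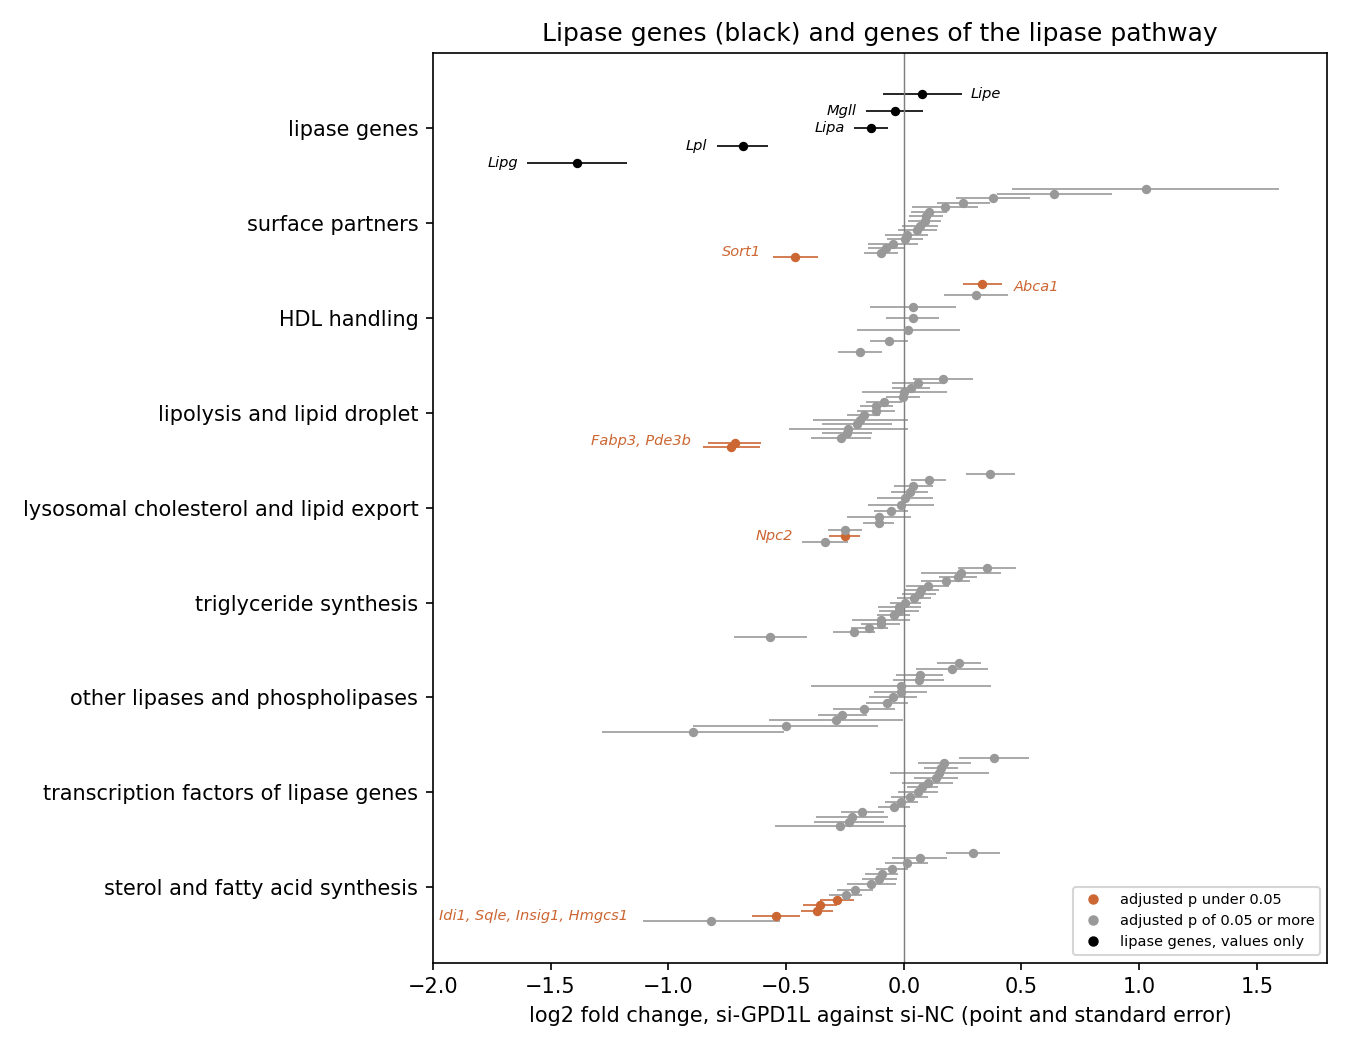
Log2 fold change of si-GPD1L against si-NC (horizontal axis, point and SE) for the 5 tested lipase genes in black and the tested genes of each pathway list. The 9 genes with an adjusted p under 0.05 are orange and named, and 8 of them lie left of 0.

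The 9 calls depended on single libraries to different degrees. Pde3b and Fabp3 passed in each of 13 alternative settings, with adjusted p-values up to 0.0147 and 0.0271. Without si-NC replicate 1 the lists had 17 calls and without si-NC replicate 3 they had 14. Without si-GPD1L replicate 3 there were 6, and Abca1 (0.0874), Npc2 (0.133) and Hmgcs1 (0.0754) no longer passed. Without si-NC replicate 2 there were 5, and the adjusted p was 0.0592 for Sort1, 0.103 for Abca1, 0.125 for Npc2 and 0.0767 for Hmgcs1. Without si-GPD1L replicate 1 there were 3, with 0.0923 for Sort1, 0.142 for Abca1, 0.167 for Npc2, 0.0663 for Sqle, 0.0923 for Insig1 and 0.154 for Hmgcs1. Without si-GPD1L replicate 2 there were 2, with 0.1085 for Sort1, 0.199 for Abca1, 0.211 for Npc2, 0.0641 for Sqle, 0.0588 for Idi1, 0.103 for Insig1 and 0.2175 for Hmgcs1.

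Interferon-stimulated genes, counted apart, were all higher in si-GPD1L: 14 of 14 passed the test (over all genes 6.36% passed and 4.03% were higher). The median log2 fold change was 6.31, with a range of 1.43 to 9.42. This list was chosen with earlier results of these data known, so its count is a description. Their summed level was 3263 ± 209 normalized counts in si-NC and 29077 ± 3018 in si-GPD1L libraries (SD, n = 3). This difference lay between the same groups as those of Lipg and Lpl, in the opposite direction, and its part in them was not tested. With si-NC as the sole control siRNA, a response to Gpd1l loss and a response to the siRNA itself cannot be told apart.

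Markers of cell types that express these lipases were compared in the same libraries, and the markers named here were chosen after their values were seen. In bulk RNA, fewer cells of a type and less RNA per cell cannot be told apart. Of the endothelial markers, the cell type from which Lipg takes its name, 11 of 12 were tested, all 11 had a log2 fold change above 0, and 4 passed the test, all higher (over all genes 6.36% passed and 4.03% were higher). Plvap, a protein of endothelial diaphragms, rose from 40.2 ± 2.73 to 110 ± 14.0 normalized counts (SD, n = 3, log2 fold change 1.44, adjusted p = 3.5e-04). Cdh5, the endothelial cadherin, rose from 76.0 ± 12.5 to 159 ± 28.3 (log2 fold change 1.07, adjusted p = 0.00337). Pecam1 rose by a log2 fold change of 0.90 (adjusted p = 0.0249) and Tie1 by 0.56 (adjusted p = 0.0395). The summed endothelial markers ran from 1978 to 2446 with si-NC against 2681 to 2823 with si-GPD1L. In si-NC libraries Flt1 alone gave 1308.5 of the mean sum of 2239.3, and Flt1 did not pass (log2 fold change 0.12, adjusted p = 0.518). Without si-NC replicate 2, si-GPD1L replicate 2 or si-GPD1L replicate 3 the endothelial calls were 2 in place of 4. Over all 6 marker lists 10 of 51 tested genes were called (19.6%, against 6.36% of all genes). With single libraries left out there were 4 to 15 calls, the fewest without si-GPD1L replicate 2 (4), si-GPD1L replicate 1 (5) and si-NC replicate 2 (6), with 7 when si-GPD1L replicate 3 was left out and 15 when si-NC replicate 1 was left out.

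Adipocytes, a main source of Lpl, Lipe and Pnpla2 in the body, left little trace: 6 of 7 markers were below the filter and the tested one, Fabp4, did not pass (0 calls by edgeR, DESeq2 and the exact test, and 0 at an unadjusted p under 0.05). The adipocyte marker sum was 80.0 to 99.9 normalized counts with si-NC against 73.1 to 82.7 with si-GPD1L, and these ranges overlapped. Cardiomyocyte markers summed to 37264 to 39265 with si-NC against 33868 to 37094 with si-GPD1L, so the culture carried RNA of cardiomyocytes, which also make Lpl. Of 10 cardiomyocyte markers 1 passed (over all genes 6.36% passed), Pln, which was lower (log2 fold change -0.44, adjusted p = 0.0337). In si-GPD1L libraries the cardiomyocyte sum was 88.2% to 96.6% of its si-NC mean, and Lpl was 52.1% to 72.7% of its own. Tnnt2 gave 10909 of the mean cardiomyocyte sum of 38417 in si-NC, so the sum leans on its most abundant genes.

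Macrophage markers, of cells that also make Lpl and Lipa, summed to 2738 to 2981 with si-NC against 2271 to 3386 with si-GPD1L. None of the 12 passed the quasi-likelihood test or DESeq2, 1 had an unadjusted p under 0.05, and the exact test called 1, Cd163. Of 7 smooth muscle and pericyte markers, Cspg4 (log2 fold change 0.80, adjusted p = 0.00130) and Mcam (0.27, adjusted p = 0.0477) rose and Des (-0.35, adjusted p = 0.0282) fell. Over all genes tested, 4.03% passed higher and 2.33% lower.

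Fibroblast markers were present in si-NC libraries, from 2571 ± 97.3 normalized counts for Thy1 to 762740 ± 126412 for Col1a1. Cardiomyocyte markers in the same libraries ran from 195 ± 25.3 for Myl7 to 10909 ± 1044 for Tnnt2. These levels do not give the share of each cell type. Of 10 fibroblast markers 2 passed, both lower (over all genes 6.36% passed and 2.33% were lower). The other 8 did not pass, and among them Col1a1 (log2 fold change 0.25, adjusted p = 0.219) and Col1a2 (0.21, adjusted p = 0.137) lay above 0. The median log2 fold change over the 10 was -0.079. Dcn, the matrix proteoglycan decorin, fell from 4249 ± 466 to 2685 ± 610 normalized counts (SD, n = 3, log2 fold change -0.66, adjusted p = 0.0129), and Lum, lumican, fell from 4071 ± 565 to 2383 ± 533 (log2 fold change -0.77, adjusted p = 0.00580). Across the 3 si-GPD1L libraries, Lpl, Dcn, Lum and the macrophage marker sum were all lowest in replicate 1 and highest in replicate 3. This order was picked after the values were seen. In si-NC libraries Lpl and the macrophage sum had the same order. Dcn (4764, 3858 and 4124 normalized counts) and Lum (4721, 3690 and 3804) were instead highest in si-NC replicate 1. As a share of the si-NC mean, the macrophage sum was 80.3%, 96.2% and 119.7% in si-GPD1L libraries and Lpl 52.1%, 61.8% and 72.7%. The part of any of these cell types in the levels of Lipg and Lpl was not tested.

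**Figure D4:**
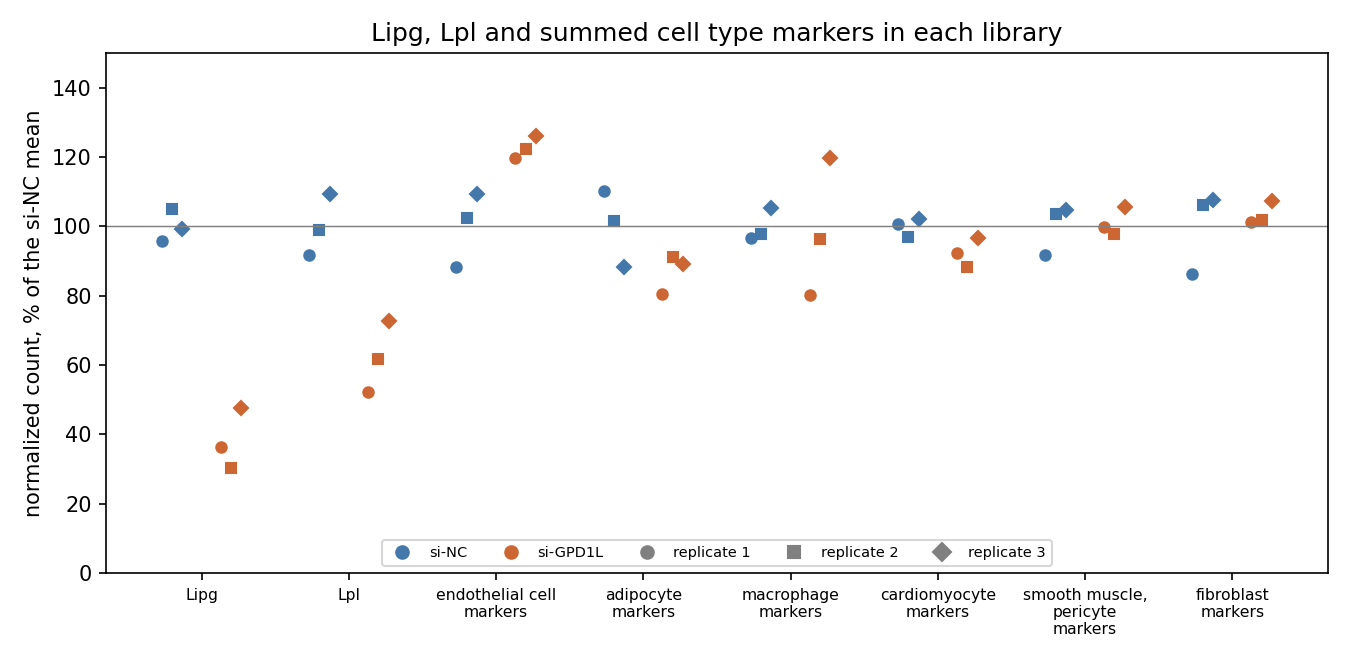
Normalized counts as a percentage of the si-NC mean (vertical axis) for Lipg, Lpl and the summed markers of 6 cell types, one point per library. In si-GPD1L libraries Lipg lies between 30.4% and 47.8% and Lpl between 52.1% and 72.7%, the endothelial markers between 120% and 126%, and the other sums between 80.3% and 120%.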

How the data were processed

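The data were gene and transcript counts of 6 libraries of atrial fibroblasts, 3 with si-NC and 3 with si-GPD1L, grouped by the genotype label. Per the labels, the authors' processing notes name bcl2fastq, HISAT2 2.1.0, HTSeq 0.12.4 and build rn6, and the authors deposited raw read counts and TPM per gene. Use of strand and the treatment of reads that match several places are not given in the sources used here. Multi-mapped reads and overlapping genes can lower or mix counts. The authors' own comparison columns (fold changes, p-values, q-values) and enrichment tables were not used.

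Counts were analysed in R 4.3.3 with edgeR 4.0.16. Genes were kept by filterByExpr, scaled by TMM and compared by the quasi-likelihood F test over all 14852 genes tested, with Benjamini-Hochberg adjustment and all 6 libraries in the fit. The scripts were tested on simulated data. Library totals of 16892255 to 20149732 set the precision: at a biological coefficient of variation of 0.0894, counting error weighs most on Lipg, Angptl4 and other low genes. No pair of libraries in a group agreed within sampling noise (chi-square per degree of freedom 4.12 to 29.9), so all were counted. Alternatives were DESeq2 1.42.0 (test and size factors), upper-quartile scaling, other filters, edgeR's exact test, replicate number as a block, transcript counts summed per gene, and each library left out.

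The 6 genes, the pathway lists and the markers (endothelial, adipocyte, macrophage, cardiomyocyte, smooth muscle and pericyte, fibroblast) were chosen with earlier results of these data known. Named by rule were the 6 lipase genes, Gpd1l, 9 direct partners, up to 4 genes per pathway list by smallest adjusted p under 0.05, the 2 genes on each side of Lipg by fold change, and the 5 most correlated with it (mean of at least 50 normalized counts). Further genes were named where a result turned on them. Gene names and spans are those of the deposited table.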

Additional observations from a re-analysis of the deposited data

How the results depend on the processing

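The log2 fold changes of the 5 tested lipase genes moved by less than the replicate SD under all 14 alternatives, with ranges of -1.58 to -1.24 for Lipg, -0.81 to -0.57 for Lpl, -0.18 to -0.082 for Lipa, -0.047 to 0.26 for Lipe and -0.11 to 0.010 for Mgll. Adding LOC100911615 to Pnpla2 was chosen after seeing the data. The 945 calls over all genes (599 higher, 346 lower) became 1929 without a filter (1055 and 874), 1528 with the exact test (656 lower) and 240 with the fold threshold (220 and 20). Leaving out single libraries gave 361 to 1531 calls (299 to 861 higher, 53 to 670 lower). The 9 pathway calls (1 higher, 8 lower) became 19 without a filter (5 and 14), 14 with the exact test (2 higher) and 0 with the fold threshold (0 and 0), and 2 to 17 with single libraries left out (0 to 4 higher, 2 to 15 lower). The 10 marker calls became 17 without a filter and 4 to 15 with single libraries left out. The cause of these shifts was not tested. Genes without a call and near 0 changed sign, G0s2 to -0.0225 with upper-quartile scaling and -0.15 to 0.10 with single libraries left out, Npc1 -0.0081 to 0.081 and Scarb1 -0.13 to 0.015.

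Same-numbered deviations correlated at 0.0414, -0.00188 and 0.0448, and those of other pairs at -0.0918 to 0.0553. These values show no pairing by replicate number over all genes, but they cannot exclude it. The block changed the SE of Lpl from 0.11 to 0.077 and that of Lipg from 0.21 to 0.22. With the replicate block 921 genes, 9 pathway genes and 11 markers were called, Npc2 missed the threshold (adjusted p = 0.0661), and Lipg had a log2 fold change of -1.40. Depth limits Lipg, Angptl4 and the adipocyte markers most. The Gpd1l check stayed without a call in all 13 alternatives, with adjusted p-values of 0.0604 to 0.579.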

Other observations

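Other lipid genes of the fixed lists came close to the threshold without passing it in edgeR's quasi-likelihood test, and are given here as values, chosen after they were seen. Nceh1, a hydrolase of cholesteryl ester outside the lysosome, had 247 ± 7.59 and 318 ± 26.4 normalized counts in si-NC and si-GPD1L libraries (SD, n = 3, log2 fold change 0.37, adjusted p = 0.0526). The lysosomal membrane proteins Lamp1 and Lamp2 had values of -0.25 (adjusted p = 0.0591) and -0.34 (adjusted p = 0.0635) on the log2 scale, and DESeq2 and the exact test called both. Lpin1, a phosphatidate phosphatase of triglyceride synthesis, had 412 ± 98.0 and 278 ± 26.1 normalized counts (log2 fold change -0.57, adjusted p = 0.0513). Scd, the desaturase that makes oleate, had 3154 ± 221 and 2657 ± 35.8 (log2 fold change -0.25, adjusted p = 0.0615). DESeq2 and the exact test also called Lpin1 and Scd, and the exact test alone called Nceh1. None of these 5 genes overlapped between the groups, and the same was true of 32.1% of the 109 tested pathway genes and 29.0% of all genes tested.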
